A study of Mus musculus with 12 samples.

Results

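The thioredoxin, peroxiredoxin and NRF2 target genes examined here were 10 genes chosen by name from the 25078 genes of the count table. They were the thioredoxins Txn1 and Txn2, the reductase Txnrd1, the peroxiredoxins Prdx1, Prdx2, Prdx3 and Prdx5, and the NRF2 targets Srxn1, Hmox1 and Nqo1. All 10 were found in the table and all 10 passed the filter on low counts in both subsets. They were measured by RNA-Seq in donor T cells sorted from the liver of lethally irradiated BALB/c recipients on day 6 after HCT. Every recipient was itself WT and was given T cell-depleted bone marrow from WT C57BL/6 donors. By design, the groups differed in the donor T cells given. In the paper, WT and STAT3-/-PD-1-/- donor T cells caused lethal acute GVHD, and STAT3-/- T cells only a mild and reversible form. Genotype therefore went together with disease of the liver, and the part of that disease in the levels below was not tested. WT T cells came from C57BL/6 mice. STAT3-/- T cells came from C57BL/6 mice with floxed Stat3 and a Cre under the CD4 promoter, which deletes Stat3 in T cells. STAT3-/-PD-1-/- T cells came from a cross of those mice with PD-1-/- mice, which lack PD-1 in all cells and not only in T cells. Each genotype was sorted as CD4+ and as CD8+ donor cells (H-2Kb+TCRβ+), which gave 6 groups of 2 libraries. Each library was a pool of cells from 3 recipients. Ages of the mice were not given in the sources used here. CD4+ and CD8+ T cells were sorted from the livers of the same recipients, so the libraries of the 2 subsets are not independent.

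Thioredoxin is a small protein that reduces disulfide bonds in other proteins and is itself reduced by thioredoxin reductase at the expense of NADPH. Peroxiredoxins are abundant enzymes that destroy hydrogen peroxide and are returned to their active form mainly by thioredoxin, while sulfiredoxin repairs peroxiredoxins that have been oxidized too far. NRF2, encoded by Nfe2l2, is a transcription factor held low by KEAP1, and when it is released it binds antioxidant response elements with small MAF proteins and raises many of these genes. In activated T cells the pathway is known for limiting oxidants during growth and for passing electrons to ribonucleotide reductase, which makes the building blocks of DNA. The RNA-Seq arm of the study asked how loss of STAT3, and then of PD-1 as well, changes the metabolic and redox programme of T cells in a GVHD target tissue.

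The libraries held 21676125 to 24551477 counts each. Levels below are CPM (the share of a library's counts that a gene takes, in counts-per-million units), scaled by the trimmed mean of M values (TMM) over all 12 libraries. Fold changes are log2 values with their SE from edgeR's quasi-likelihood test within 1 subset, a gene was called at an adjusted p under 0.05 (Benjamini-Hochberg over the genes tested, 11959 for CD4+ and 12002 for CD8+ T cells), and n was 2 libraries a group throughout. The smallest count of any member in any library was 46, for Nqo1, and the largest was 6919, for Txn1. The titles of the samples place all replicate 1 libraries in 1 run of serial numbers and all replicate 2 libraries in another. Values from a fit with the replicate number as a block are therefore given where the block changes a call of a member. For the other genes such values are given in part. The block assumes a shift between replicates shared by all genotypes, and it uses 1 more degree of freedom. STAT3-/-PD-1-/- libraries hardly shared the deviations of the other genotypes (r = 0.0464 to 0.352), so block values of their comparisons are to be read with this limit. An exact permutation test on 1 gene, with 2 libraries in each arm, could not pass 0.05, so the calls rest on the spread shared across genes.

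Txn1, the cytosolic thioredoxin, was highest as RNA in STAT3-/-PD-1-/- T cells of both subsets. For the protein, the paper found no difference among the genotypes by flow cytometry of liver CD4+ and CD8+ T cells. Txn1 RNA rose 0.40 ± 0.10 (log2, SE) over WT in CD8+ T cells. In CD4+ T cells it was 0.68 ± 0.19 above WT, where its adjusted p was 0.0596 (edgeR), or 0.0108 with the replicate number as a block. Hmox1, heme oxygenase-1, fell in STAT3-/-PD-1-/- CD8+ T cells as compared with STAT3-/- CD8+ T cells (log2 -0.73 ± 0.19). Without the block, both CD8+ calls were lost whichever CD8+ library was left out, and with only the 4 libraries compared. That of Txn1 was also lost with no filter on low counts and with all 12 libraries in 1 fit. Srxn1, sulfiredoxin, had its lowest levels in STAT3-/- T cells of both subsets, about 1 log2 unit below WT, but this difference failed the threshold within each subset. None of the 10 genes passed it between STAT3-/- and WT T cells in either subset.

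The targeted genes checked the labels. Stat3, in CPM of CD4+ libraries, was 369 and 467 in WT, 139.9 and 164 in STAT3-/- and 157 and 219 in STAT3-/-PD-1-/- T cells. In CD8+ libraries Stat3 was 397 and 384, 149 and 136, and 154 and 235 CPM in the same order. All 8 libraries of STAT3-deficient cells were below all 4 WT libraries. The difference from WT was -1.46 ± 0.22 in CD4+ (adjusted p = 0.055) and -1.46 ± 0.20 in CD8+ STAT3-/- T cells (adjusted p = 0.108), and it passed the threshold in STAT3-/-PD-1-/- T cells at -1.13 ± 0.22 (adjusted p = 0.018) and -0.996 ± 0.20 (adjusted p = 0.0177). With the replicate block the difference of STAT3-/- CD4+ T cells also passed (-1.45 ± 0.12, adjusted p = 0.00197). Pdcd1, which encodes PD-1, was at 247 and 235 (WT), 261 and 323 (STAT3-/-) and 55.1 and 26.01 CPM (STAT3-/-PD-1-/-) in CD4+ libraries. Its CD8+ levels were 376 and 307, 424 and 454, and 93.6 and 65.6 CPM. The 4 libraries of STAT3-/-PD-1-/- cells were the lowest, as their labels say. Counts over a whole gene include transcript parts that a deletion leaves in place.

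The sorted cells were checked against markers. The 11 T cell markers summed to 5637 to 8373 CPM. Cd4 was at 1242 to 1887 CPM in CD4+ and at most 2.73 CPM in CD8+ libraries, and Cd8a was at 589 to 1339 CPM in CD8+ and at most 5.64 CPM in CD4+ libraries. In STAT3-/-PD-1-/- as compared with WT T cells 2 of the 11 were lower in CD4+ and 6 in CD8+ T cells. These counts stand beside 5.65% and 8.21% of all genes lower. As compared with STAT3-/-, 5 were lower in CD8+ and 0 in CD4+ T cells, beside 8.05% and 5.03%. With the replicate block, CD4+ T cells had 5 lower and 1 higher from WT, and 1 lower and 1 higher from STAT3-/-. All genes lower were then 12.2% and 12.8%, and higher 13.8% and 13.2%. For CD8+ T cells the block gave 7 lower from WT and 6 from STAT3-/-, beside 12.1% and 11.9% of all genes. The part of these 11 markers in the results below was not tested. Of the other cell types, 12 hepatocyte markers summed to at most 5.27 CPM, 9 erythroid markers to at most 0.736 CPM, 8 neutrophil markers to at most 1.19 CPM and 6 B cell markers to at most 14.7 CPM. Of these lists 2 genes passed in a genotype comparison without the block, both in CD8+ T cells and named after their values were seen. Trf, a transferrin gene of the hepatocyte list, was higher in STAT3-/-PD-1-/- than in STAT3-/- T cells (1.73 ± 0.48, adjusted p = 0.0486, edgeR) at 0.647 to 2.69 CPM, and Apoa2 of that list joined it with the block (1.29 ± 0.36, adjusted p = 0.0442). Cd79b of the B cell list was lower than in WT (-1.18 ± 0.22, adjusted p = 0.0149) and STAT3-/- T cells (-1.23 ± 0.22, adjusted p = 0.0143), at 5.10 to 14.5 CPM. The 7 dendritic cell markers summed to 5.84 to 392 CPM and the 7 liver endothelial markers to 111 to 198 CPM, but most of this was Itgax and Pecam1, which T cells can also carry. Itgax passed as lower in all 4 comparisons of STAT3-/-PD-1-/- T cells and between STAT3-/- and WT CD4+ T cells (-1.30, adjusted p = 0.0377). It was lowest in STAT3-/-PD-1-/- T cells, at 4.98 and 5.72 CPM in CD4+ libraries and 27.8 and 20.2 CPM in CD8+ libraries. Up to 5 of the dendritic and up to 4 of the endothelial markers were at 0 in a library. Macrophage and Kupffer cell markers are given beside Hmox1 below. In bulk samples like these, fewer cells of a type and less RNA per cell cannot be told apart.

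Replicates 1 and 2 of WT and STAT3-/- T cells stood apart, in the same way in both subsets, for several regulators of the pathway, named here after their values were seen. Maff, which encodes a small MAF protein, was at 75.6 and 2.58 CPM in the pair of WT CD4+ libraries and at 72.7 and 1.73 CPM in the STAT3-/- pair. In CD8+ libraries it was at 35.8 and 1.64 CPM, and at 35.2 and 0.818 CPM. The STAT3-/-PD-1-/- pairs were at 9.05 and 2.42 CPM (CD4+) and at 5.79 and 1.10 CPM (CD8+). Replicate 1 was therefore higher in all 6 groups, by 3.73 to 43.0 times. Mafk, a second small MAF gene, and Sqstm1, which encodes the KEAP1-binding protein p62, differed the same way in WT and STAT3-/- groups, with ratios of replicate 1 to 2 of 2.73 to 3.23 for Mafk and 1.96 to 2.26 for Sqstm1, against 1.08 to 1.20 and 1.02 in STAT3-/-PD-1-/- groups. Among the members, Srxn1 was higher in replicate 1 in all 6 groups, by 1.11 to 1.59 times. Prdx1 was 1.39 and 1.81 times higher in replicate 1 of WT and STAT3-/- CD4+ T cells, and Prdx3 was 1.36 and 1.57 times higher, while in the same CD8+ groups the ratios were 0.86 and 1.00 for Prdx1 and 0.95 and 0.96 for Prdx3.

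**Figure D1:**
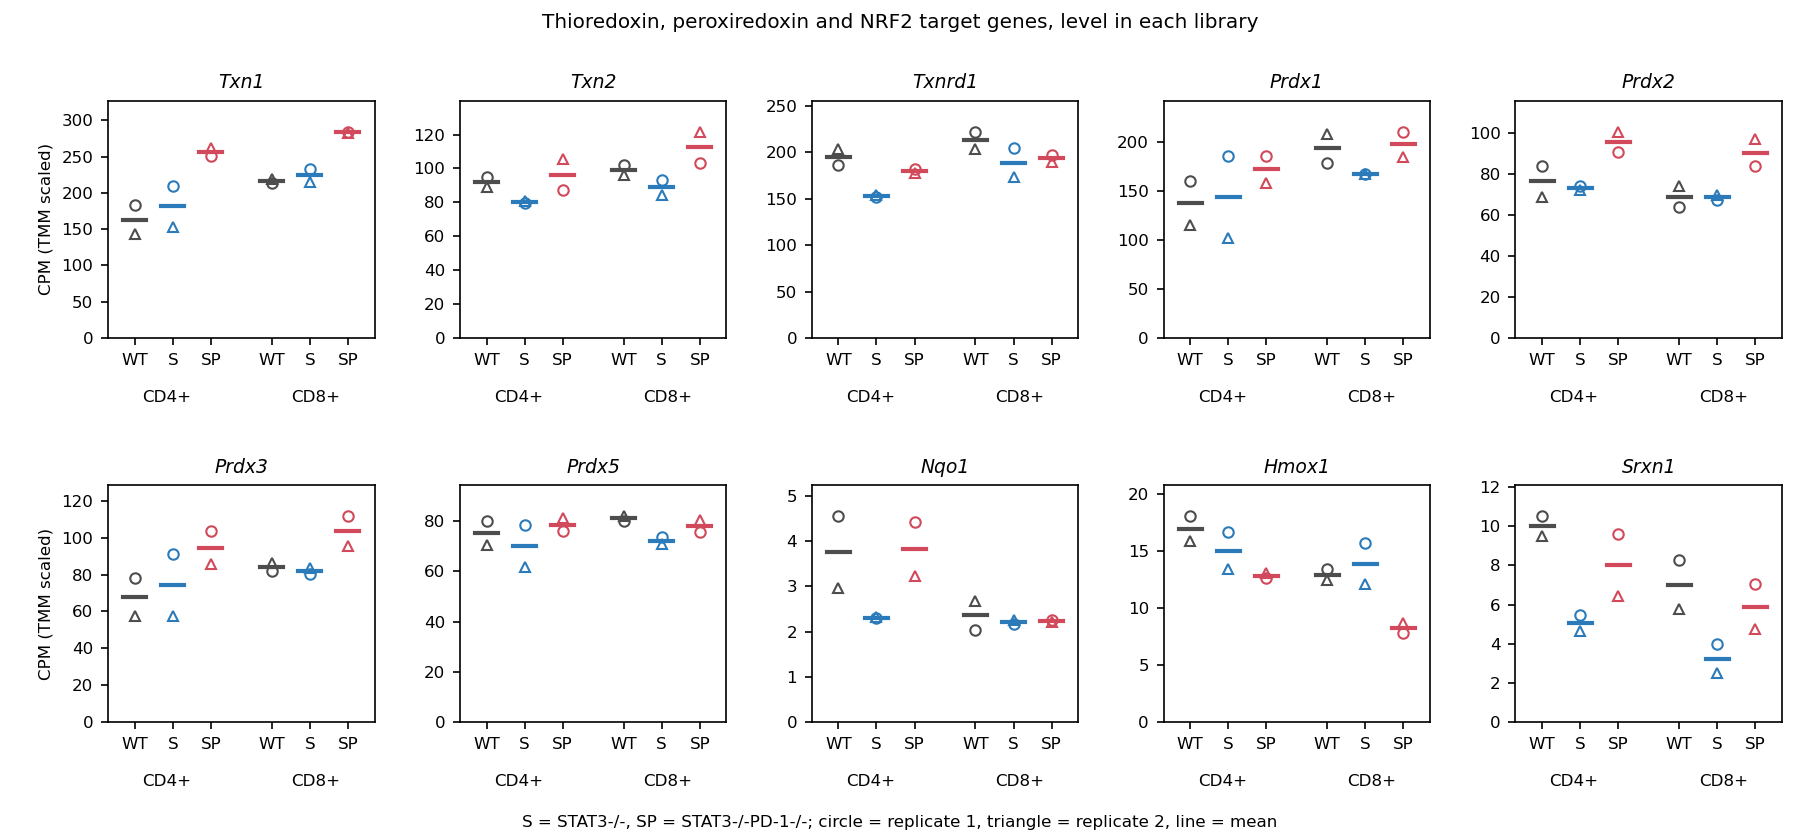
Level of each of the 10 genes in each of the 12 libraries, in CPM scaled by TMM (y axis, from 0) by group (x axis: WT, S for STAT3-/- and SP for STAT3-/-PD-1-/-, CD4+ at the left and CD8+ at the right). Circles are replicate 1, triangles replicate 2 and lines group means; Txn1 in SP lies above all other groups of its subset, Srxn1 in S below them.

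The thioredoxins and their reductase were considered first. Per kilobase of exon, Txn1 was the most abundant of the 10 genes at 210.1 ± 43.4 CPM per kb (mean ± SD, 12 libraries), above Prdx1 at 119 ± 22.95. Txn2 followed at 74.0 ± 9.37, then Prdx5 at 59.7 ± 4.70, Prdx3 at 58.4 ± 10.97, Prdx2 at 50.8 ± 7.82 and Txnrd1 at 46.6 ± 5.19. Neighbours among Prdx5, Prdx3, Prdx2 and Txnrd1 did not differ beyond their spread. Hmox1 at 8.47 ± 1.92, Srxn1 at 2.32 ± 0.888 and Nqo1 at 1.79 ± 0.559 CPM per kb were far lower, and Srxn1 and Nqo1 overlapped.

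Txn1 lies at chr4:57943373-57956411 on the minus strand (mm10). For Txn1, the CD4+ libraries held 183 and 143 CPM (WT), 209.8 and 153 CPM (STAT3-/-) and 251 and 261 CPM (STAT3-/-PD-1-/-). Txn1 in CD8+ libraries was at 213 and 219, 233 and 216, and 284 and 282 CPM in the same order. The STAT3-/-PD-1-/- libraries were the highest of their subset without overlap, and WT and STAT3-/- libraries overlapped in both subsets. As compared with WT, Txn1 rose in STAT3-/-PD-1-/- CD8+ T cells (log2 0.40 ± 0.10, adjusted p = 0.0385, edgeR). The other differences of STAT3-/-PD-1-/- cells were 0.68 ± 0.19 from WT in CD4+ (adjusted p = 0.0596), 0.52 ± 0.19 from STAT3-/- in CD4+ (adjusted p = 0.126) and 0.35 ± 0.10 from STAT3-/- in CD8+ T cells (adjusted p = 0.0582). Between STAT3-/- and WT, Txn1 differed by 0.16 ± 0.19 in CD4+ and 0.05 ± 0.10 in CD8+ T cells. With the replicate block Txn1 passed in all 4 comparisons of STAT3-/-PD-1-/- T cells, at 0.70 ± 0.14 (adjusted p = 0.0108) and 0.54 ± 0.14 (adjusted p = 0.0295) from WT and STAT3-/- in CD4+, and 0.40 ± 0.09 (adjusted p = 0.0265) and 0.35 ± 0.09 (adjusted p = 0.0406) in CD8+ T cells. Without the block, its call in CD8+ T cells was lost whichever of the 6 CD8+ libraries was left out (log2 0.37 to 0.41). It was also lost with no filter on low counts (adjusted p = 0.0595), with only the 4 libraries compared (adjusted p = 0.0699) and with all 12 libraries in 1 fit (adjusted p = 0.124).

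Txn2, the mitochondrial thioredoxin, lies at chr15:77915051-77928994 on the minus strand. For Txn2, the CD4+ libraries held 94.7 and 89.0 CPM (WT), 79.7 and 80.8 CPM (STAT3-/-) and 87.3 and 106 CPM (STAT3-/-PD-1-/-). Txn2 in CD8+ libraries was at 102 and 96.4, 93.4 and 84.6, and 103 and 122 CPM. STAT3-/- cells were lowest in both subsets without overlap, and no genotype difference passed the threshold within a subset. The largest was 0.35 ± 0.13 between STAT3-/-PD-1-/- and STAT3-/- CD8+ T cells (adjusted p = 0.104).

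Txnrd1, the cytosolic thioredoxin reductase that carries electrons from NADPH to thioredoxin, lies at chr10:82833951-82897724 on the plus strand. For Txnrd1, the CD4+ libraries held 186 and 203 CPM (WT), 152 and 154 CPM (STAT3-/-) and 183 and 178 CPM (STAT3-/-PD-1-/-). Txnrd1 in CD8+ libraries was at 222 and 204, 204 and 173, and 198 and 189 CPM. Unlike Txn1, its highest library in each subset was WT, and the 3 CD4+ groups did not overlap. STAT3-/- CD4+ T cells differed from WT by -0.34 ± 0.14 (adjusted p = 0.437), and STAT3-/-PD-1-/- T cells differed from WT by -0.09 ± 0.14 (CD4+) and -0.13 ± 0.12 (CD8+). No genotype difference of Txnrd1 passed the threshold within a subset.

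The peroxiredoxins were considered next. Prdx1, the cytosolic peroxiredoxin that is also an NRF2 target, lies at chr4:116685599-116700000 on the plus strand. For Prdx1, the CD4+ libraries held 159 and 115 CPM (WT), 185 and 102 CPM (STAT3-/-) and 185 and 158 CPM (STAT3-/-PD-1-/-). Prdx1 in CD8+ libraries was at 179 and 207, 167 and 167, and 210.0 and 184 CPM. The STAT3-/- CD4+ pair spanned the WT pair and overlapped with STAT3-/-PD-1-/- libraries, and STAT3-/- CD8+ T cells were the lowest of their subset without overlap. STAT3-/- differed from WT by 0.07 ± 0.28 in CD4+ and by -0.21 ± 0.13 in CD8+ T cells (adjusted p = 0.969 and 0.607), and STAT3-/-PD-1-/- from WT by 0.35 ± 0.28 and 0.04 ± 0.13 (adjusted p = 0.464 and 0.861).

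Prdx2, the second cytosolic 2-cysteine enzyme, lies at chr8:84969622-84974810 on the plus strand. For Prdx2, the CD4+ libraries held 83.8 and 68.9 CPM (WT), 74.0 and 72.2 CPM (STAT3-/-) and 90.8 and 101 CPM (STAT3-/-PD-1-/-). Prdx2 in CD8+ libraries was at 63.6 and 74.1, 67.5 and 69.8, and 83.6 and 97.1 CPM. All 4 STAT3-/-PD-1-/- libraries were above the other libraries of their subset, by 0.35 ± 0.16 over WT in CD4+ and 0.40 ± 0.14 in CD8+ T cells, but the adjusted p was 0.188 and 0.0869. Both CD8+ differences, from WT and from STAT3-/-, passed with the replicate block at 0.40 ± 0.11 (adjusted p = 0.0373 and 0.0374). A gene copy of Prdx2 and a pseudogene of Txn1 are annotated in the mouse genome, so reads of both could have been split or dropped by the counting.

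Prdx3, the mitochondrial peroxiredoxin that Txn2 reduces, lies at chr19:60864066-60874538 on the minus strand. For Prdx3, the CD4+ libraries held 78.2 and 57.5 CPM (WT), 90.8 and 57.7 CPM (STAT3-/-) and 103 and 85.5 CPM (STAT3-/-PD-1-/-). Prdx3 in CD8+ libraries was at 81.97 and 86.4, 80.4 and 83.8, and 112 and 95.4 CPM. In CD8+ T cells the STAT3-/-PD-1-/- pair lay above all other libraries, while in CD4+ T cells it overlapped with STAT3-/- only. The difference from WT was 0.50 ± 0.25 (CD4+, adjusted p = 0.229) and 0.31 ± 0.12 (CD8+, adjusted p = 0.128), and with the replicate block the first passed at 0.51 ± 0.13 (adjusted p = 0.0251).

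Prdx5, an atypical peroxiredoxin of mitochondria, peroxisomes and cytosol, lies at chr19:6906697-6910106 on the minus strand. For Prdx5, the CD4+ libraries held 80.1 and 70.3 CPM (WT), 78.4 and 61.6 CPM (STAT3-/-) and 76.0 and 81.2 CPM (STAT3-/-PD-1-/-). Prdx5 in CD8+ libraries was at 80.0 and 81.9, 73.5 and 70.9, and 75.7 and 80.4 CPM. Prdx5 was the steadiest member, its highest library being 1.33 times its lowest, and no difference exceeded 0.19 on the log2 scale.

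Srxn1, which encodes the sulfiredoxin that repairs overoxidized peroxiredoxins, lies at chr2:152105524-152111376 on the plus strand and was the member that varied most, its highest library being 4.21 times its lowest. For Srxn1, the CD4+ libraries held 10.5 and 9.48 CPM (WT), 5.46 and 4.67 CPM (STAT3-/-) and 9.61 and 6.43 CPM (STAT3-/-PD-1-/-). Srxn1 in CD8+ libraries was at 8.27 and 5.75, 3.97 and 2.49, and 7.03 and 4.73 CPM. STAT3-/- libraries were the lowest of their subset without overlap, whereas WT and STAT3-/-PD-1-/- libraries overlapped. STAT3-/- differed from WT by -0.98 ± 0.26 in CD4+ (adjusted p = 0.227, edgeR) and by -1.12 ± 0.34 in CD8+ T cells (adjusted p = 0.32, edgeR). STAT3-/-PD-1-/- differed from STAT3-/- by 0.68 ± 0.26 (CD4+, adjusted p = 0.133) and 0.87 ± 0.34 (CD8+, adjusted p = 0.114). None of these 4 differences passed the threshold. With the replicate block the differences from STAT3-/- passed, at 0.66 ± 0.21 (CD4+, adjusted p = 0.0498) and 0.88 ± 0.20 (CD8+, adjusted p = 0.0245), and those from WT did not (adjusted p = 0.0539 and 0.113).

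Hmox1, which encodes the enzyme that breaks down heme, lies at chr8:75093618-75100593 on the plus strand. For Hmox1, the CD4+ libraries held 18.1 and 15.9 CPM (WT), 16.7 and 13.4 CPM (STAT3-/-) and 12.6 and 13.1 CPM (STAT3-/-PD-1-/-). Hmox1 in CD8+ libraries was at 13.4 and 12.5, 15.8 and 12.1, and 7.87 and 8.73 CPM. STAT3-/-PD-1-/- libraries were the lowest of each subset, and Hmox1 fell in them as compared with STAT3-/- CD8+ T cells (log2 -0.73 ± 0.19, adjusted p = 0.0439, edgeR). The difference from WT was -0.63 ± 0.19 in CD8+ (adjusted p = 0.0652) and -0.38 ± 0.20 in CD4+ T cells (adjusted p = 0.249), and that from STAT3-/- was -0.21 ± 0.20 in CD4+ T cells. Leaving out any 1 of the 6 CD8+ libraries ended the call of Hmox1 (log2 -0.91 to -0.54), as did using only the 4 libraries compared (adjusted p = 0.0599).

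Because macrophages of the liver hold much heme oxygenase-1, their 14 markers were set beside Hmox1. The cells were sorted as H-2Kb+TCRβ+ donor cells, a gate that does not select macrophages. The list summed to 19.4 to 109 CPM, and most of it was Itgam, an integrin gene that activated T cells also use. Itgam was at 47.6 and 55.3 CPM (WT), 39.7 and 45.7 CPM (STAT3-/-) and 11.99 and 7.19 CPM (STAT3-/-PD-1-/-) in CD4+ libraries, and at 68.2 and 66.7, 54.2 and 69.9, and 8.04 and 6.49 CPM in CD8+ libraries, so it was lowest where Hmox1 was lowest. Itgam fell in STAT3-/-PD-1-/- CD8+ T cells (log2 -3.08 ± 0.18, adjusted p = 0.00115, edgeR) as compared with STAT3-/-. Cd68 was at 29.1 and 28.9 CPM (WT), 27.2 and 27.8 CPM (STAT3-/-) and 16.9 and 18.3 CPM (STAT3-/-PD-1-/-) in CD8+ libraries and also fell in that comparison (-0.63 ± 0.13, adjusted p = 0.0232). In CD4+ libraries Cd68 was at 8.27 and 8.68, 5.93 and 6.94, and 8.57 and 10.3 CPM, so that its STAT3-/-PD-1-/- libraries were not the lowest there, and it did not pass. Lyz2, a lysozyme gene named after its values were seen, also fell there with the replicate block (-2.14 ± 0.60, adjusted p = 0.0438). The other 12 markers, Lyz2 among them, which include the Kupffer cell genes Clec4f, Cd5l, Vsig4 and C1qa, summed to 13.1 and 9.78 CPM in replicate 2 of WT and STAT3-/- CD4+ T cells and to 13.6 and 9.12 CPM in replicate 2 of the same CD8+ groups. In the other 8 libraries they summed to 0.734 to 1.87 CPM, and no single one exceeded 2.00 CPM in any library. Of the 14 markers 11 were tested. In STAT3-/-PD-1-/- T cells 1 was lower in CD4+ and 2 in CD8+ T cells from WT, and as many from STAT3-/-. These stand beside 5.65% and 8.21% of all genes lower from WT, and 5.03% and 8.05% from STAT3-/-. With the block 3 and 5 were lower from WT, and 2 and 3 from STAT3-/-. The shares of all genes with the block are given with the lists below. The part of these 14 markers in the levels of Hmox1 was not tested.

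**Figure D2:**
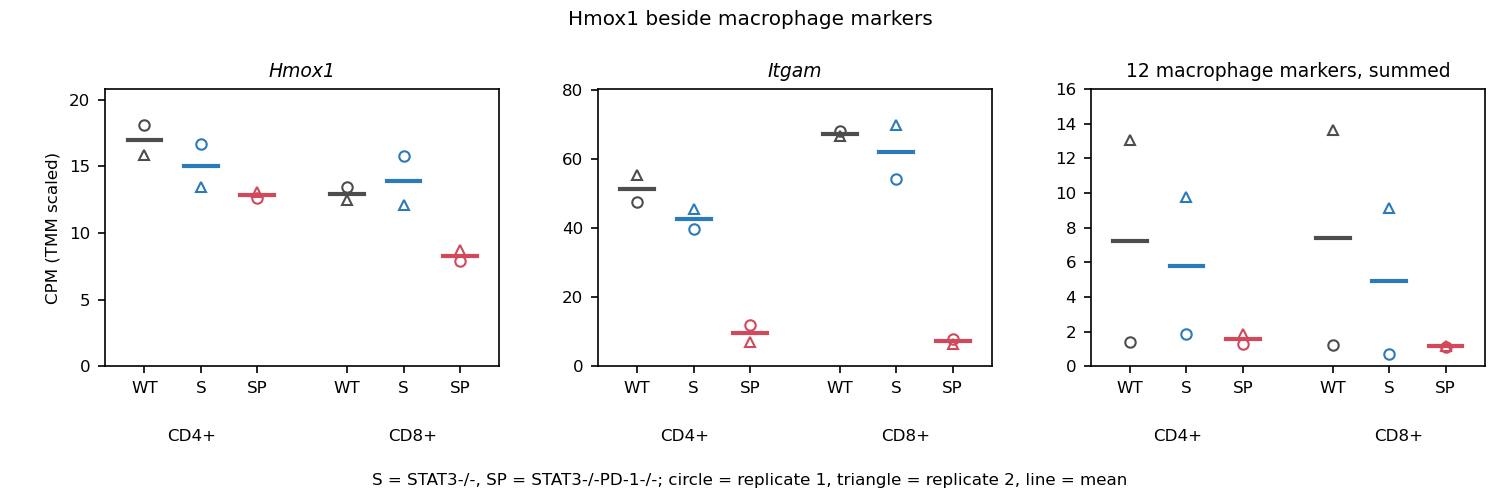
Level of Hmox1, of Itgam and of the sum of 12 macrophage markers (without Itgam and Cd68) in each library (y axes, CPM scaled by TMM, from 0; x axis and symbols as in the plot of the 10 genes). Itgam is low in SP, as is Hmox1, and the summed markers are high in replicate 2 of WT and S.

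Nqo1, an NADPH-using quinone reductase and a standard reporter of NRF2 activity, lies at chr8:107388225-107403205 on the minus strand and was the least abundant member, with 46 to 102 counts a library. For Nqo1, the CD4+ libraries held 4.55 and 2.96 CPM (WT), 2.31 and 2.31 CPM (STAT3-/-) and 4.41 and 3.22 CPM (STAT3-/-PD-1-/-). Nqo1 in CD8+ libraries was at 2.05 and 2.68, 2.16 and 2.25, and 2.25 and 2.20 CPM. STAT3-/- CD4+ T cells were below both other CD4+ groups without overlap (-0.69 ± 0.32 from WT, adjusted p = 0.519), and the CD8+ groups lay within 0.10 of each other on the log2 scale. No genotype difference of Nqo1 passed the threshold.

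The promoters of the members were searched for the core of the antioxidant response element, TGACNNNGC, because Txnrd1, Srxn1, Prdx1, Hmox1 and Nqo1 are known NRF2 targets and because Txnrd1 and Srxn1 followed each other across libraries. RefSeq promoters (GRCm38.p6, 250 bases before to 50 after each start) were given for 9 of the 10 members, all but Hmox1, with 11 starts in all. The core was found on either strand in 3 of these 11 promoters, and in 12.4% of all 32851 promoters. The 2 matches upstream of a start are shown on the strand of the gene, with the core, which lies on the opposite strand, in capitals. In Prdx1 (chr4:116685445-116685495, plus strand) the core starts at position -133, and in the second of 3 annotated starts of Txnrd1 (chr10:82859093-82859143, plus strand) at -92.
Prdx1: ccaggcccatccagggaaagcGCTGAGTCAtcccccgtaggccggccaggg
Txnrd1: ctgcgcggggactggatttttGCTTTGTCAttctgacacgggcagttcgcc
Read on the opposite strand, the cores are TGACTCAGC in Prdx1 and TGACAAAGC in Txnrd1. Srxn1 held TGACCTAGC on the opposite strand at position 29 after its start, inside the transcribed part. Of these 3 genes, Txnrd1 and Srxn1 were lowest in STAT3-/- T cells on average and Prdx1 was so in CD8+ T cells only, and none of the 3 passed between STAT3-/- and WT within a subset. A match is a description of the letters in this window and not of binding.

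Over all members, the counts were read against all genes. Between STAT3-/- and WT, 0 of 10 members passed in CD4+ T cells, where 0.334% of all genes did, and 0 of 10 in CD8+ T cells, where 0.0583% did. At an unadjusted p under 0.05 there were 2 members (Srxn1 and Txnrd1) in CD4+ and 1 (Srxn1) in CD8+ T cells, beside 10.5% and 11% of all genes, and DESeq2, which called 2.27% and 1.82% of all genes, called none in either. Between STAT3-/-PD-1-/- and WT, 0 of 10 passed in CD4+ T cells (1 by DESeq2, Txn1) beside 12.9% of all genes (7.21% higher, 5.65% lower), and 1 of 10, Txn1, in CD8+ T cells beside 17.2% (9.01% higher, 8.21% lower). Between STAT3-/-PD-1-/- and STAT3-/-, 0 of 10 passed in CD4+ T cells (none by DESeq2) beside 11.1% of all genes (6.05% higher, 5.03% lower), and 1 of 10, Hmox1, in CD8+ T cells beside 16.8% (8.76% higher, 8.05% lower). At an unadjusted p under 0.05 there were 1 (CD4+) and 4 (CD8+) members as compared with WT, beside 28.7% and 34% of all genes, and 3 and 6 as compared with STAT3-/-, beside 29.4% and 34.4%. In no genotype comparison was the share of members called by edgeR without a block above that of all genes. DESeq2 called 18.1% and 17.6% of all genes in the CD4+ comparisons with WT and with STAT3-/-. In CD8+ T cells it called 2 members (Txn1 and Hmox1) beside 22.7% of all genes as compared with WT, and 3 (Txn1, Prdx2 and Hmox1) beside 23.4% as compared with STAT3-/-.

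The replicate block raised the counts of members and of all genes together. Between STAT3-/-PD-1-/- and WT, 2 of 10 members passed in CD4+ (Txn1 and Prdx3) beside 26% of all genes, and 2 in CD8+ T cells (Txn1 and Prdx2) beside 24.7%. Between STAT3-/-PD-1-/- and STAT3-/-, 2 passed in CD4+ (Txn1 and Srxn1) beside 26%, and 4 in CD8+ T cells (Txn1, Prdx2 and Srxn1 higher, Hmox1 lower) beside 24.4%. Between STAT3-/- and WT no member passed with the block, beside 2.53% (CD4+) and 0.075% (CD8+) of all genes.

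Median differences of the members were small. They were -0.13 (CD4+) and -0.13 (CD8+) between STAT3-/- and WT, 0.09 and -0.00 between STAT3-/-PD-1-/- and WT, and 0.33 and 0.30 between STAT3-/-PD-1-/- and STAT3-/-, where 9 of 10 members were positive in each subset and Hmox1 alone was negative. Of these signs, Prdx1 in CD4+ T cells turned without STAT3-/- replicate 2, Txnrd1 in CD8+ T cells without STAT3-/- replicate 2, and Nqo1 in CD8+ T cells without replicate 1 of either group. Medians of all genes tested lay between -0.01 and 0.01. The 3 comparisons of a subset share libraries, so these values are not independent of each other. Groups did not overlap for 4, 5 and 7 members in CD4+ T cells (STAT3-/- from WT, STAT3-/-PD-1-/- from WT, STAT3-/-PD-1-/- from STAT3-/-), beside 38.2%, 59.2% and 59.2% of all genes. In CD8+ T cells they did not overlap for 4, 6 and 8 members, beside 43.6%, 59.7% and 63.1% of all genes.

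**Figure D3:**
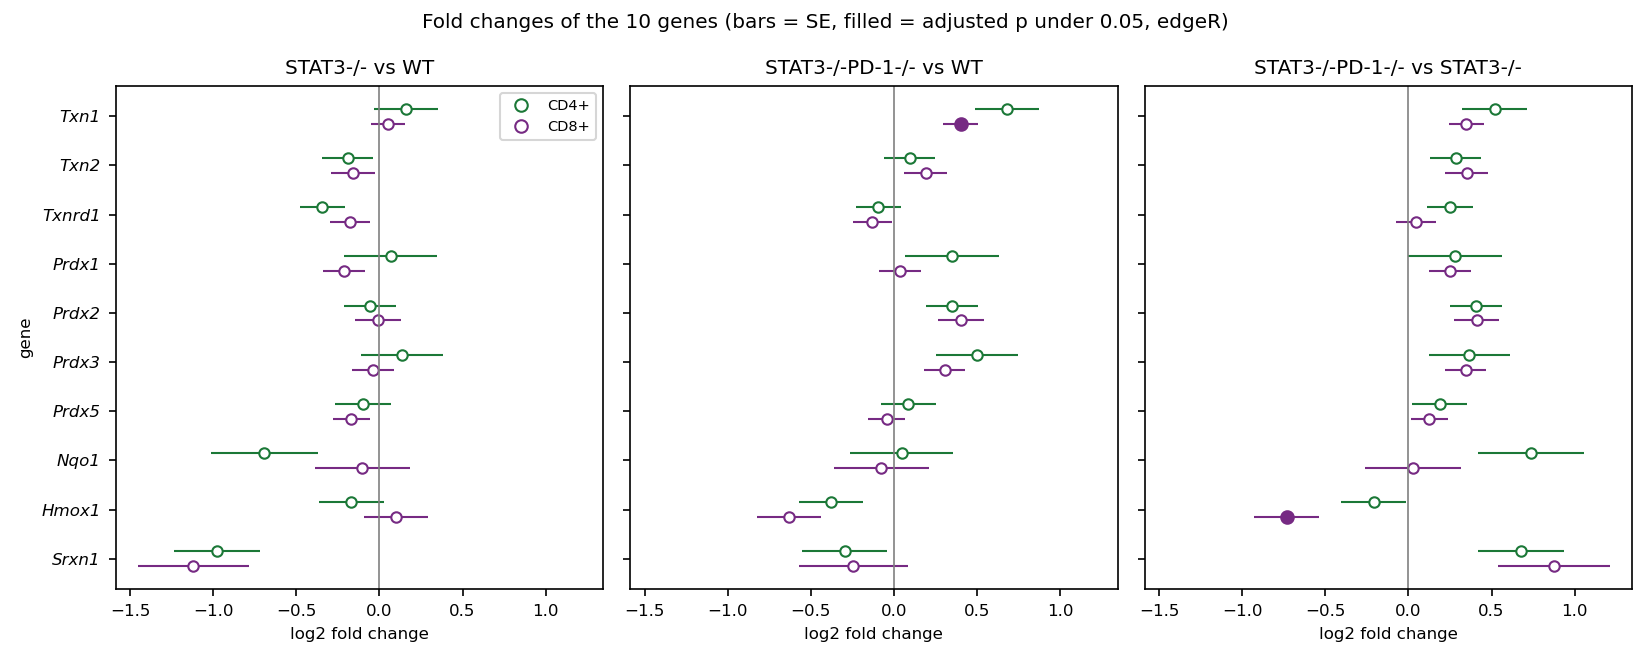
Log2 fold change (x axis) of each of the 10 genes (y axis) in the 3 genotype comparisons, CD4+ in green and CD8+ in purple. Bars are SE from edgeR and filled points have an adjusted p under 0.05; the 2 filled points are Txn1 at 0.40 and Hmox1 at -0.73, both in CD8+ T cells, and Srxn1 lies near -1 in both subsets in the first panel.

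Differences between the subsets were tested over all 12 libraries. As compared with CD4+ T cells and averaged over genotypes, CD8+ T cells had more Txn1 (log2 0.29 ± 0.09, adjusted p = 0.047) and less Hmox1 (-0.38 ± 0.11, adjusted p = 0.0254) and Nqo1 (-0.50 ± 0.16, adjusted p = 0.0473), all by edgeR. These 3 of 10 members stand beside 25.5% of all genes (12.9% higher, 12.6% lower). Because both subsets came from the same recipients, a fit with each genotype and number as a block was set beside this one. It called 6 of 10 members beside 45.3% of all genes, adding less Srxn1 (-0.55 ± 0.10, adjusted p = 0.00212) and more Txnrd1 (0.18 ± 0.06, adjusted p = 0.0305) and Txn2 (0.16 ± 0.05, adjusted p = 0.0226) in CD8+ T cells. With the replicate number alone as a block, 5 passed beside 35.3%. DESeq2 also called 3 members, beside 27.4% of all genes, but with Srxn1 (adjusted p = 0.0258) in place of Nqo1 (adjusted p = 0.0659). In some edgeR fits with no block and a single library left out, no member passed. Txn1 was higher in the CD8+ library in 6 of 6 pairs of the same genotype and number, and Hmox1 and Nqo1 in 0 of 6. Txn2 and Txnrd1 were also higher in 6 of 6 pairs and Srxn1 in 0 of 6, without passing in the fit with no block (adjusted p = 0.159, 0.0833 and 0.0522). The genotype differences themselves were not shown to differ between subsets: 0 of 10 members passed the interaction test for STAT3-/- from WT, STAT3-/-PD-1-/- from WT or STAT3-/-PD-1-/- from STAT3-/-, beside 0%, 0.00811% and 0% of all genes, and none had an unadjusted p under 0.05 (beside 1.85%, 4.43% and 3.59%) or was called by DESeq2.

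Averaging the genotype differences over both subsets was added after the values were seen, because Srxn1 in STAT3-/-, and Txn1 and Hmox1 in STAT3-/-PD-1-/- T cells, lay on the same side of WT in both. With each genotype and number as a random block, since its CD4+ and CD8+ libraries share recipients (limma-voom, consensus correlation 0.564), Txn1 was higher (log2 0.53, adjusted p = 0.0275) and Hmox1 lower (-0.52, adjusted p = 0.0393) in STAT3-/-PD-1-/- than in WT T cells. These were 2 of 10 members, beside 22.7% of all genes. Itgam, set beside Hmox1 above, was also lower than in WT in both subsets, and its part was not tested. No member passed between STAT3-/- and WT (beside 0.754%) or between STAT3-/-PD-1-/- and STAT3-/- (beside 23.3%). For Srxn1 the difference of STAT3-/- from WT was near -1.05, with an adjusted p of 0.101 under this block and of 0.0276 by edgeR when the 12 libraries were taken as independent, where 4.95% of all genes passed. With the replicate number as a block in edgeR, Srxn1 was lower by this average (-1.05 ± 0.14, adjusted p = 0.0013), as was Txnrd1 (-0.26 ± 0.08, adjusted p = 0.0454), and these 2 of 10 members stood beside 12.6% of all genes. That fit also takes the subsets as independent, although they share recipients, and with the random block neither passed (adjusted p = 0.101 for Srxn1 and 0.393 for Txnrd1). In the averages of STAT3-/-PD-1-/- from WT and from STAT3-/-, edgeR called 3 and 5 members beside 36% and 37.2% of all genes with no block, and 4 and 6 beside 46.2% and 48.2% with the replicate block.

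The other genes of the 2 families were then considered. Counts of list genes called here and in the lists that follow are to be read against the shares of all genes given above, which in STAT3-/-PD-1-/- T cells were 7.21% higher and 5.65% lower in CD4+ and 9.01% and 8.21% in CD8+ T cells from WT, and 6.05% and 5.03% in CD4+ and 8.76% and 8.05% in CD8+ T cells from STAT3-/-. With the replicate block these shares rose to 13.8% and 12.2% (CD4+) and 12.6% and 12.1% (CD8+) from WT, and to 13.2% and 12.8% (CD4+) and 12.5% and 11.9% (CD8+) from STAT3-/-. Of the other peroxiredoxins, Prdx4, the enzyme of the endoplasmic reticulum, was called in all 4 comparisons of STAT3-/-PD-1-/- T cells. It was at 27.7 and 27.01 CPM (WT), 41.0 and 24.9 CPM (STAT3-/-) and 67.2 and 62.7 CPM (STAT3-/-PD-1-/-) in CD4+ libraries, and at 32.6 and 46.8, 40.8 and 40.5, and 68.6 and 63.1 CPM in CD8+ libraries. No STAT3-/-PD-1-/- library overlapped with another group. Prdx4 rose over WT by 1.27 ± 0.23 in CD4+ (adjusted p = 0.0151) and 0.74 ± 0.18 in CD8+ T cells (adjusted p = 0.033, edgeR), and over STAT3-/- by 1.00 ± 0.23 and 0.71 ± 0.18. Prdx6, which uses glutathione in place of thioredoxin, did not pass in any comparison, its differences lying between -0.28 and 0.16.

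Of the 9 other genes of the thioredoxin system, none passed between STAT3-/- and WT, none in CD4+ T cells, and 1 in each CD8+ comparison of STAT3-/-PD-1-/- cells. These were Txnl1, a thioredoxin-like protein of the cytosol (0.47 ± 0.13 over WT, adjusted p = 0.0468, lost whichever library was left out), and Txnrd3, a reductase close to the detection limit at 0.327 to 2.00 CPM in CD8+ libraries (1.99 ± 0.43 over STAT3-/-, adjusted p = 0.025). List medians were 0.08 and -0.03 (STAT3-/- from WT), 0.12 and 0.03 (STAT3-/-PD-1-/- from WT) and -0.01 and -0.09 (STAT3-/-PD-1-/- from STAT3-/-) in CD4+ and CD8+ T cells. The thioredoxin inhibitor Txnip, the most abundant of the list, was at 325 to 1592 CPM and split by replicate, replicate 2 being the higher in all 6 groups. Its differences lay between -0.39 and 0.08 with SE of 0.39 to 0.46, and none passed. With the replicate block, Txnrd2, the mitochondrial reductase, named after its values were seen, rose in all 4 comparisons of STAT3-/-PD-1-/- T cells, by 0.65 to 0.82, and the list gave 2 and 1 genes higher in CD4+ and 2 and 3 in CD8+ T cells from WT and STAT3-/-, with 1 lower in the last, beside 13.8%, 13.2%, 12.6% and 12.5% of all genes higher and 11.9% lower in the last.

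The regulators of NRF2 were taken next. Nfe2l2, which encodes NRF2 itself, was at 41.9 and 31.2 CPM (WT), 41.3 and 31.9 CPM (STAT3-/-) and 18.5 and 20.8 CPM (STAT3-/-PD-1-/-) in CD4+ libraries, and at 39.9 and 30.8, 39.4 and 32.2, and 20.2 and 17.3 CPM in CD8+ libraries. WT and STAT3-/- libraries overlapped and all STAT3-/-PD-1-/- libraries were below them. Nfe2l2 fell as compared with WT in CD4+ (log2 -0.87 ± 0.21, adjusted p = 0.0361) and CD8+ T cells (-0.90 ± 0.18, adjusted p = 0.0179), and as compared with STAT3-/- in both (-0.88 ± 0.21, adjusted p = 0.0399, and -0.92 ± 0.18, adjusted p = 0.0186, edgeR). Each of these calls held in 3 of 6 fits without a library, and the CD4+ calls in 7 of 9 other settings. Over all settings the log2 values lay between -1.09 and -0.65. Bach1, a repressor at NRF2 sites of Hmox1, fell from WT in CD8+ T cells (-0.96 ± 0.25, adjusted p = 0.0398). Bach2, a related repressor known for restraining T cell effector genes, had its highest levels in STAT3-/- T cells (24.8 and 28.3 CPM in CD4+, 11.4 and 13.0 CPM in CD8+) and fell from there to STAT3-/-PD-1-/- T cells (-1.56 ± 0.21 in CD4+, adjusted p = 0.00919, and -1.07 ± 0.24 in CD8+, adjusted p = 0.0275).

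Of the 11 regulators, 1 was lower in CD4+ and 2 in CD8+ T cells as compared with WT, and 2 in each subset as compared with STAT3-/-, and none was higher. The shares of all genes called lower in these comparisons were 5.65%, 8.21%, 5.03% and 8.05%. Under the block 3 regulators fell from WT in CD4+ T cells, Mafg and Bach2 being added, beside 12.2% of all genes lower, and Bach2 rose from WT to STAT3-/- in CD4+ T cells (1.03 ± 0.16, adjusted p = 0.0202), where 1.08% of all genes were higher. The list medians of these comparisons were -0.70, -0.24, -0.43 and -0.54, and those of STAT3-/- against WT, where none passed without the block, were -0.09 (CD4+) and -0.12 (CD8+). Maff, Mafk and Sqstm1 carry the replicate split given above, with SE of 1.55 to 1.72, 0.55 to 0.62 and 0.39 to 0.42, and did not pass. The medians above include these genes. Cul3, the ubiquitin ligase subunit that works with KEAP1 and the gene with the highest mean log2 CPM of the list, differed by -0.16 to 0.21 and did not pass. Keap1, the inhibitor of NRF2, named after its values were seen, did not pass in any comparison, its differences lying between -0.09 and 0.11.

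**Figure D4:**
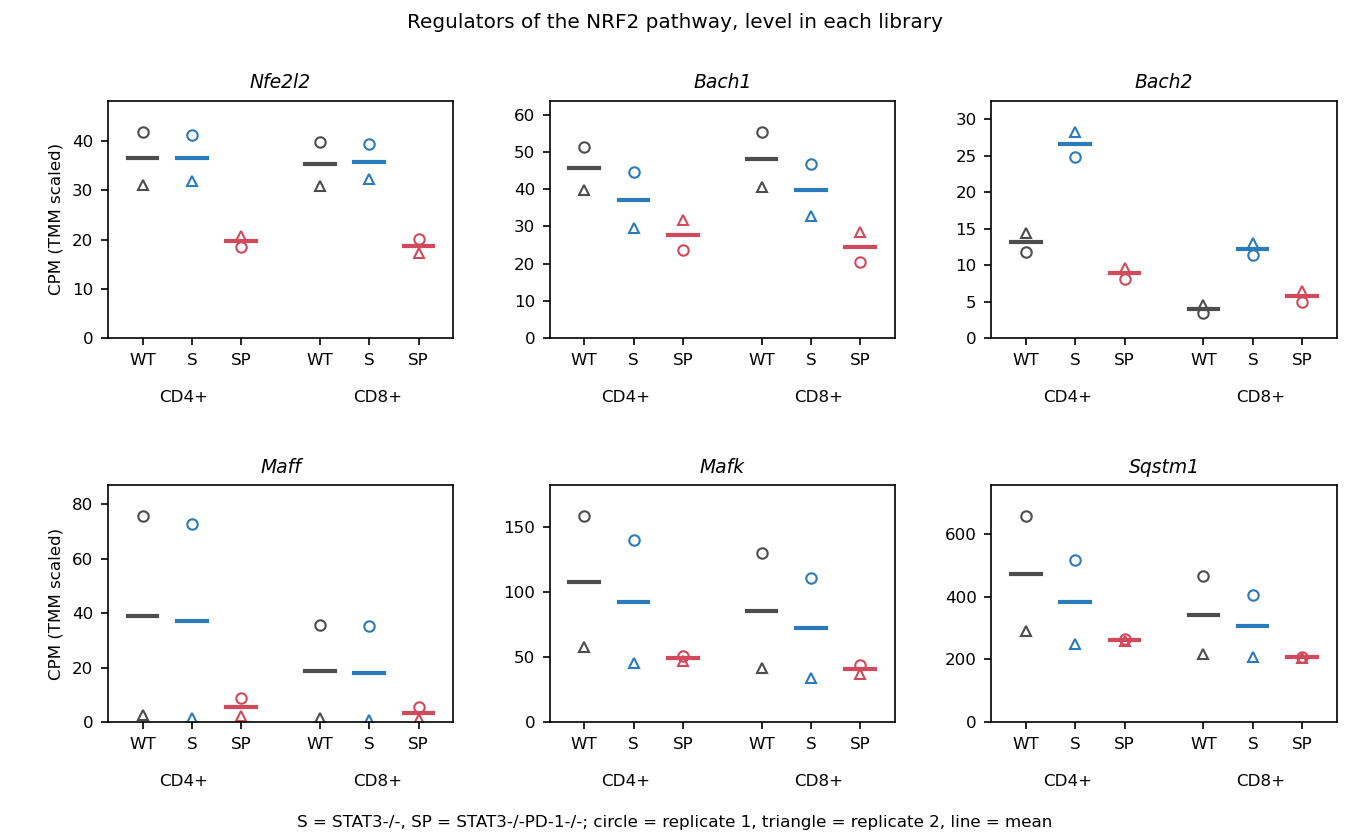
Level of 6 regulators of the NRF2 pathway in each of the 12 libraries (y axis, CPM scaled by TMM, from 0; x axis and symbols as in the plot of the 10 genes). Nfe2l2 lies at 17.3 to 20.8 CPM in SP and at 30.8 to 41.9 CPM elsewhere; Maff, Mafk and Sqstm1 are high in replicate 1 of WT and S and low in the other 8 libraries.

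Other NRF2 targets moved in both directions. Of 25 genes, 21 were tested. None passed between STAT3-/- and WT in either subset. In STAT3-/-PD-1-/- as compared with WT T cells 2 were higher and 0 lower in CD4+, and 4 higher and 1 lower in CD8+ T cells. As compared with STAT3-/-, 5 were higher and 1 lower in each subset, beside 6.05% (CD4+) and 8.76% (CD8+) of all genes higher and 5.03% and 8.05% lower. List medians were 0.01 and 0.00, 0.02 and 0.10, and 0.24 and 0.22 for the 3 comparisons in CD4+ and CD8+ T cells. Under the block 4 targets fell from WT to STAT3-/- in CD4+ T cells (Abcc1, Akr1b8, Gstp1 and Slc48a1, named after their values were seen), beside 1.45% of all genes lower. In STAT3-/-PD-1-/- as compared with WT CD4+ T cells 4 rose and 4 fell, beside 13.8% higher and 12.2% lower. The 4 that fell were Ephx1, Gstp1, Cbr1 and Osgin1, the last 2 also named after their values were seen. In CD8+ T cells the block gave 4 higher and 2 lower from WT, beside 12.6% and 12.1% of all genes. From STAT3-/- it gave 6 higher and 2 lower there, beside 12.5% and 11.9%.

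Tkt, the transketolase of the pentose phosphate pathway, rose in all 4 comparisons, by 0.60 to 0.64 with SE of 0.14. Gsr, which regenerates reduced glutathione with NADPH, rose over STAT3-/- by 0.98 ± 0.17 in CD4+ (adjusted p = 0.018) and 0.52 ± 0.14 in CD8+ T cells (adjusted p = 0.0426). It was at 123 and 137 CPM (WT), 103 and 82.2 CPM (STAT3-/-) and 166 and 193 CPM (STAT3-/-PD-1-/-) in CD4+ libraries, and at 134 and 118, 122 and 102, and 151 and 168 CPM in CD8+ libraries. G6pdx and Pgd, the NADPH-making enzymes of that pathway, rose over WT in CD8+ T cells, by 0.44 ± 0.11 and 0.50 ± 0.13. Among the glutathione S-transferases, Gstm1 rose in all 4 comparisons, by 2.91 ± 0.32 and 2.78 ± 0.32 in CD4+ and by 1.65 ± 0.27 and 1.51 ± 0.27 in CD8+ T cells over WT and STAT3-/-, from 0.773 to 3.603 CPM outside STAT3-/-PD-1-/- T cells to 6.23 to 10.4 CPM within them.

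Of further targets, Slc48a1, Akr1b8, G6pdx and Pgd are named after their values were seen. Slc48a1, a heme transporter, and Abcc1, an exporter of glutathione conjugates, had levels in STAT3-/- libraries below those of both other genotypes in each subset. Slc48a1 was at 59.2 and 64.9, 36.5 and 40.1, and 53.8 and 65.2 CPM in CD4+ libraries (WT, STAT3-/-, STAT3-/-PD-1-/-), and rose from STAT3-/- to STAT3-/-PD-1-/- by 0.65 ± 0.17 (adjusted p = 0.048) and, in CD8+ T cells, by 0.80 ± 0.18 (adjusted p = 0.0287). Abcc1 rose by 0.94 ± 0.20 in CD8+ T cells in the same comparison (adjusted p = 0.0232). Akr1b8, an aldo-keto reductase, was at 6.96 and 4.83, 2.02 and 1.16, and 4.24 and 4.84 CPM in CD4+ libraries and rose by 1.54 ± 0.35 from STAT3-/- to STAT3-/-PD-1-/- (adjusted p = 0.0348). Slc48a1, Abcc1 and Akr1b8 are 3 of 21 targets tested, whose medians of STAT3-/- from WT were 0.01 (CD4+) and 0.00 (CD8+). Between these genotypes 38.2% (CD4+) and 43.6% (CD8+) of all genes did not overlap. Like Srxn1, all 3 had their lowest levels in STAT3-/- T cells of both subsets, though none passed between STAT3-/- and WT without the block (adjusted p = 0.104 to 0.503). With it, all 3 fell in STAT3-/- CD4+ T cells, Slc48a1 at -0.69 ± 0.12 (adjusted p = 0.0341), Abcc1 at -0.65 ± 0.11 (adjusted p = 0.0328) and Akr1b8 at -1.89 ± 0.30 (adjusted p = 0.0235). Other targets went the other way in STAT3-/-PD-1-/- T cells. Ephx1, the microsomal epoxide hydrolase, fell in CD8+ T cells as compared with WT (-1.36 ± 0.17, adjusted p = 0.00562) and in CD4+ T cells as compared with STAT3-/- (-0.97 ± 0.21, adjusted p = 0.0303). With the block (edgeR), Cbr1 (-0.66 ± 0.18, adjusted p = 0.0337) and Gstp1 (-0.54 ± 0.16, adjusted p = 0.0395) fell from WT in CD4+ T cells. Osgin1 then fell from WT in CD4+ (-1.76 ± 0.27, adjusted p = 0.00342) and CD8+ T cells (-2.73 ± 0.36, adjusted p = 0.00545). It also fell from STAT3-/- in CD8+ T cells (-1.51 ± 0.37, adjusted p = 0.0309). None of these block calls passed without it, and Osgin1 was 1.54 to 5.68 times higher in replicate 1 of every group. The cystine transporter gene Slc7a11, also an NRF2 target, named after its values were seen, was at 0 in 9 of 12 libraries and at most 0.0884 CPM in the others.

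Of 20 other genes of peroxide and superoxide defence, 19 were tested and none passed between STAT3-/- and WT. Sesn3, a sestrin, and Selenow, a small selenoprotein, fell in all 4 comparisons of STAT3-/-PD-1-/- T cells. Sesn3 differed from WT by -1.46 ± 0.17 in CD4+ (adjusted p = 0.00446) and -0.79 ± 0.17 in CD8+ T cells (adjusted p = 0.0207), and Selenow by -0.64 ± 0.13 (adjusted p = 0.024) and -0.99 ± 0.11 (adjusted p = 0.00472). The call of Selenow from STAT3-/- in CD4+ T cells was lost whichever library was left out. These 2 were the only ones to pass in CD4+ T cells without the block, all lower, and with it Glrx3 and Glrx5 rose from WT, and Glrx5 and Gpx1 rose and Sesn1 fell from STAT3-/-. In CD8+ T cells Glrx, glutaredoxin, also fell from WT (-0.47 ± 0.13, adjusted p = 0.0476), and Glrx3 and Glrx5, which serve iron-sulfur clusters, rose over STAT3-/- (0.58 ± 0.16 and 0.65 ± 0.17), which gave 3 lower from WT, and 2 higher and 2 lower from STAT3-/-. Cat, encoding catalase and the most abundant of the list, did not pass, nor did the superoxide dismutases Sod1 and Sod2 and the glutathione peroxidases Gpx1 and Gpx4, named after their values were seen, in any genotype comparison without the block, while with it Gpx1 also rose in CD8+ T cells as compared with STAT3-/- (0.40 ± 0.11, adjusted p = 0.0481). Glrx3 also rose over WT in CD8+ T cells with the block (0.54 ± 0.15, adjusted p = 0.0462, edgeR). Medians of the list were -0.05 and -0.04, 0.09 and -0.03, and -0.03 and 0.03.

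Of 8 genes that supply NADPH in mitochondria, where Txn2 and Prdx3 work, 6 were tested and 1 gene, Nnt, the transhydrogenase of the inner membrane, passed. It was at 12.5 and 12.4 CPM (WT), 17.5 and 19.2 CPM (STAT3-/-) and 28.002 and 27.1 CPM (STAT3-/-PD-1-/-) in CD4+ libraries, and at 14.7 and 9.63, 16.01 and 13.1, and 26.5 and 27.7 CPM in CD8+ libraries. Nnt rose over WT by 1.17 ± 0.17 in CD4+ (adjusted p = 0.00819) and 1.17 ± 0.22 in CD8+ T cells (adjusted p = 0.0166), and over STAT3-/- by 0.91 ± 0.22 in CD8+ T cells (adjusted p = 0.0348). Per the paper, the WT, floxed Stat3 and PD-1-/- mice came from different sources. The part of their strain background in these levels was not tested. Nnt also passed with the block from STAT3-/- in CD4+ T cells, while Idh2, a mitochondrial isocitrate dehydrogenase, fell from WT in CD4+ T cells (-0.66 ± 0.20, adjusted p = 0.0456) and Mthfd2, both named after their values were seen, rose from STAT3-/- in both subsets (0.42 ± 0.11 and 0.39 ± 0.10). Me2, the mitochondrial malic enzyme and the most abundant of the list, differed by -0.14 to 0.11. Medians of the list were 0.07 and 0.04, 0.05 and 0.17, and -0.10 and 0.26.

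The last list held 6 genes, of which 4 were higher and 1 lower in STAT3-/-PD-1-/- than in WT T cells in both subsets, beside 7.21% (CD4+) and 9.01% (CD8+) of all genes higher and 5.65% and 8.21% lower. The 4 were Rrm1 and Rrm2, the subunits of ribonucleotide reductase, which thioredoxin can reduce, Tyms, thymidylate synthase, which makes a DNA building block and is not reduced by thioredoxin, and Pdia6, a disulfide isomerase of the endoplasmic reticulum. Rrm1 rose from 386 and 268 to 654 and 654 CPM in CD4+ libraries (1.02 ± 0.21, adjusted p = 0.0217) and from 542 and 450.2 to 802 and 796 CPM in CD8+ libraries (0.70 ± 0.12, adjusted p = 0.0116). Pdia6 rose by 0.91 ± 0.20 (adjusted p = 0.0247) and 0.91 ± 0.12 (adjusted p = 0.00604). The 1 lower gene, named after its values were seen, was Map3k5, which encodes the kinase ASK1 that thioredoxin holds inactive, at -1.01 ± 0.25 (adjusted p = 0.0404) and -0.63 ± 0.16 (adjusted p = 0.0362). From STAT3-/- to STAT3-/-PD-1-/- T cells, Pdia6, Rrm1 and Rrm2 rose in CD4+ and Pdia6 in CD8+ T cells. Tyms in both subsets and Rrm1 in CD8+ T cells also rose there with the replicate block. None of the 6 passed between STAT3-/- and WT without the block, and with it Map3k5 fell in CD4+ T cells (-0.72 ± 0.13, adjusted p = 0.0335). Medians were 0.11 and 0.21, 0.90 and 0.60, and 0.61 and 0.23. Of 66 calls of list genes and of Stat3 and Pdcd1, all 66 held with DESeq2 and with the replicate block, while 9 were lost with only the 4 libraries compared, 5 with all 12 libraries in 1 fit, 4 with no filter, 1 with RLE scaling and, of the 65 that could be fitted there, 2 with at least 10 counts in every library and 6 and 7 with limma on log2(RPKM + 1) and log2(RPKM + 0.1), and leaving out single libraries ended a call in 202 cases and kept it in 194. Of the 66, 4 held whichever library was left out (Pdcd1 from WT in both subsets, and Stat3 and Ephx1 from WT in CD8+ T cells), and 9 held in none of these fits, which were Rrm2, Selenow and Slc48a1 from STAT3-/- in CD4+, Glrx3 and Glrx5 from STAT3-/- in CD8+, and G6pdx, Glrx, Pgd and Txnl1 from WT in CD8+ T cells. These lists were chosen with earlier results of these data known, so their counts are not independent support of a direction.

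**Figure D5:**
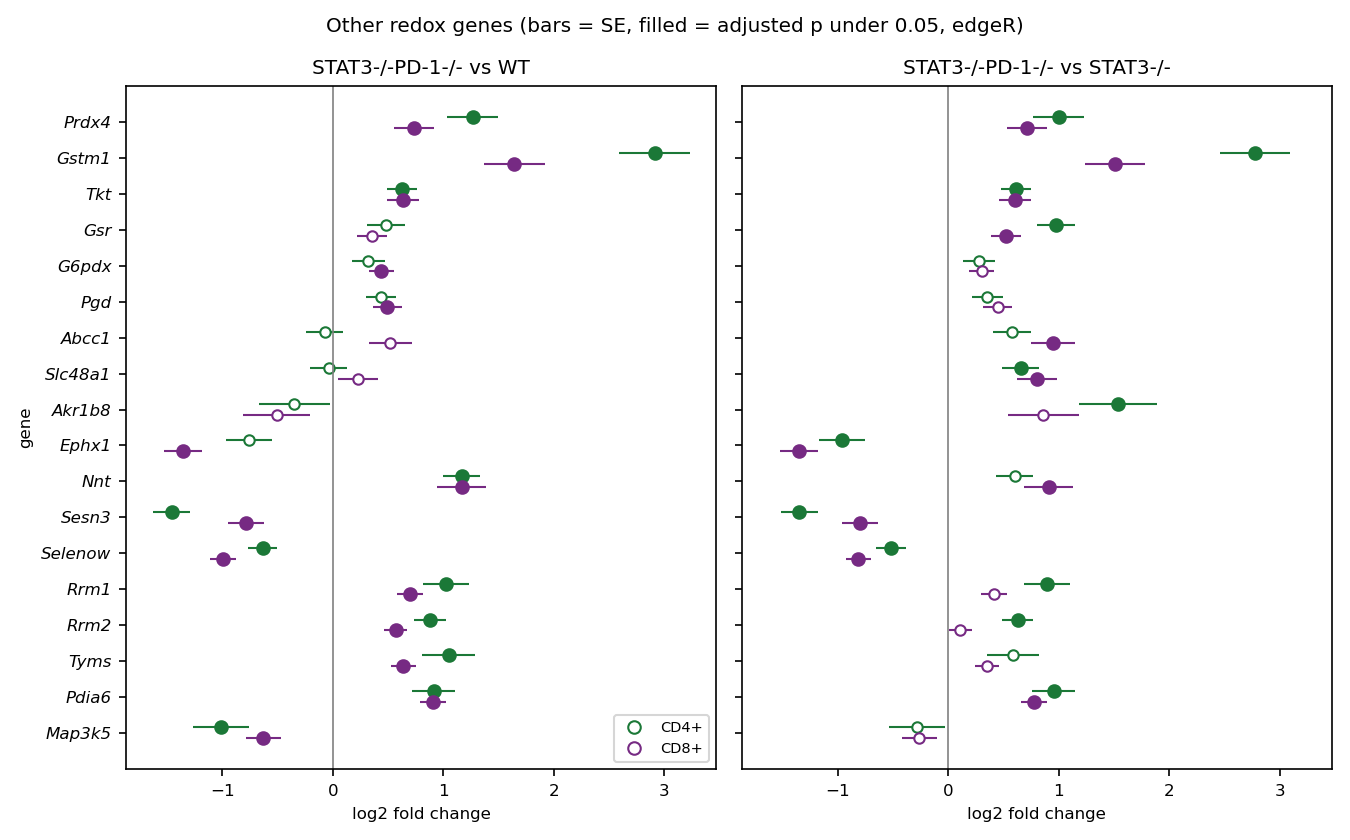
Log2 fold change (x axis) of 18 genes of the other lists (y axis) in STAT3-/-PD-1-/- T cells as compared with WT (left) and STAT3-/- T cells (right), CD4+ in green and CD8+ in purple. Bars are SE from edgeR and filled points have an adjusted p under 0.05; Gstm1 lies farthest to the right, at 1.51 to 2.91, and Sesn3 and Selenow lie left of 0 in all 4 comparisons.

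How alike the members were is given as a description over 12 libraries, which share genotype, subset and replicate number. After the mean of each subset was subtracted from log2 CPM, the Pearson correlation of Prdx1 with Prdx3 was 0.92, of Txn1 with Prdx3 0.90, of Txn1 with Prdx2 0.83 and of Txnrd1 with Srxn1 0.83, and these were the 4 of 45 pairs above 0.8. Txn1 and its reductase Txnrd1 had a correlation of -0.14. Hmox1 was opposite to Prdx2 at -0.69, the lowest of the pairs.

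Among the 8698 genes whose mean log2 CPM reached 3, those most like Txn1 were Gins2 (0.983), Orc6 (0.982) and Syce2 (0.981). Gins2 was at 39.8 ± 0.546 CPM in CD4+ and 49.7 ± 1.74 CPM in CD8+ STAT3-/-PD-1-/- T cells (mean ± SD, n = 2), and at 16.7 ± 4.003 and 27.6 ± 1.80 CPM in WT T cells. Most like Txnrd1 were Por (0.905), Tigar (0.905) and Lag3 (0.869), most like Prdx1 were Snrpe (0.977), Snrpb2 (0.976) and Psma1 (0.975), and most like Hmox1 were Abtb2 (0.947), Cd44 (0.946) and Arhgef6 (0.940). Cd44 was at 234.8 ± 12.1 CPM in STAT3-/-PD-1-/- and 374 ± 28.4 CPM in WT CD8+ T cells. None of the most alike genes was shared between these 4 members.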

How the data were processed

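RNA-Seq of 12 libraries (6 groups of 2) was analysed. Per the study's methods, libraries were made with a stranded mRNA kit, sequenced as 51-base single reads, aligned with STAR to mm10 and counted per RefSeq gene with HTSeq-count, and the authors deposited whole-number counts and, in a second table, RPKM values. The sample labels name another kit and a protocol for another cell type, which was not resolved. The strand setting of the counting was not given in the sources used here. Columns not mapped to a sample numbered 0.

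Counts were tested with edgeR 4.0.16 (quasi-likelihood, TMM, filterByExpr with a minimum count of 10) in R 4.3.3, in 1 fit of 6 libraries for each subset (3 residual degrees of freedom) and 1 fit of 12 libraries for CD8+ against CD4+ T cells and interactions. SE is the log2 fold change over the square root of F. The members and all gene lists were chosen with earlier results of these data known. From each list were named up to 3 genes with the smallest adjusted p in each comparison, or the most abundant gene where none passed, and other genes are said to have been chosen after their values were seen. The study describes its data as combined from replicate experiments, and sample titles number the libraries in 2 runs, 1 for each replicate number, so the number was taken to pair the samples. Same-numbered libraries deviated together between the subsets of a genotype, which share recipients (r = 0.629, 0.625 and 0.750), and between WT and STAT3-/- (0.725 and 0.733), but hardly between STAT3-/-PD-1-/- and the other genotypes (0.0464 to 0.352), so the pairing rests on the titles. The main test has no block, and p-values measure the spread between 2 pools a group. Alternatives were DESeq2 1.42.0, RLE scaling, other filters, other sets of libraries, a replicate block, a fold threshold, leaving out each library, and limma 3.58.1 on log2(RPKM + 1) and log2(RPKM + 0.1) from the RPKM the authors deposited. The test was also run on simulated data, but the outcome is not given here and no result rests on it. Promoters came from RefSeq.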

Additional observations from a re-analysis of the deposited data

How the results depend on the processing

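Of the members called (0 in each CD4+ comparison, 0, 1 and 1 in CD8+ T cells for STAT3-/- from WT, STAT3-/-PD-1-/- from WT and STAT3-/-PD-1-/- from STAT3-/-, and 3 between CD8+ and CD4+ T cells), DESeq2 gave 1 for STAT3-/-PD-1-/- from WT in CD4+, 2 in CD8+ and 3 for STAT3-/-PD-1-/- from STAT3-/- in CD8+ T cells, and between subsets Srxn1 in place of Nqo1. With no filter these were 1 in CD4+ and 0 in CD8+ T cells from WT, and with at least 10 counts in every library 2 from STAT3-/- in CD8+ T cells. With only the 4 libraries compared they were 1 (CD4+, from WT), 0 (CD8+, from WT) and 0 (CD8+, from STAT3-/-), and with all 12 libraries in 1 fit 1 (CD4+, from WT), while the 1 member called from WT in CD8+ T cells was then Hmox1 (adjusted p = 0.0387) in place of Txn1 (adjusted p = 0.124). With a log2 fold change of at least 1 both CD8+ counts were 0. RLE scaling moved no member across the threshold. Leaving out each library gave 0 to 1 member for STAT3-/-PD-1-/- from WT in CD4+, 0 to 0 in both CD8+ comparisons of STAT3-/-PD-1-/- T cells and 0 to 3 between the subsets. Txn1 in CD4+ STAT3-/-PD-1-/- T cells from WT (0.51 to 0.86) passed without either STAT3-/- library (adjusted p = 0.0271 and 0.0281, edgeR).

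With the replicate number as a block, members called were 2 and 2 in CD4+ (beside 26% and 26% of all genes) and 2 and 4 in CD8+ T cells (24.7% and 24.4%) for STAT3-/-PD-1-/- from WT and from STAT3-/-, and 5 between subsets (35.3%), and with each genotype and number as a block 6 between subsets (45.3%). For the mean over both subsets, edgeR called 1 (STAT3-/- from WT), 3 and 5 members (4.95%, 36% and 37.2%), and the replicate block 2, 4 and 6 (12.6%, 46.2% and 48.2%), both taking the subsets as independent. With the correlation of the subsets estimated (0.564) the counts were 0, 2 and 0 (0.754%, 22.7% and 23.3%). Over the members, the other lists, the markers and the targeted genes, the block added 64 calls and ended 0.

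Some directions reversed. Prdx2 in STAT3-/- from WT CD8+ T cells became 0.0033 and 0.0035 with limma on log2(RPKM + 1) and log2(RPKM + 0.1). Leaving out single libraries moved STAT3-/- from WT in CD4+ T cells over -0.069 to 0.36 (Txn1), -0.41 to 0.43 (Prdx1), -0.19 to 0.082 (Prdx2), -0.22 to 0.42 (Prdx3) and -0.27 to 0.054 (Prdx5), and in CD8+ T cells over -0.12 to 0.11 (Prdx2), -0.082 to 0.0018 (Prdx3), -0.29 to 0.11 (Nqo1) and -0.093 to 0.27 (Hmox1). STAT3-/-PD-1-/- from WT ranged over -0.064 to 0.23 (Txn2), -0.0073 to 0.17 (Prdx5) and -0.23 to 0.37 (Nqo1) in CD4+, and -0.075 to 0.14 (Prdx1), -0.26 to 0.12 (Nqo1) and -0.57 to 0.029 (Srxn1) in CD8+ T cells. From STAT3-/-, Prdx1 ranged over -0.081 to 0.76 in CD4+, and Txnrd1 over -0.065 to 0.16 and Nqo1 over -0.012 to 0.061 in CD8+ T cells. The cause was not tested.

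Counts over all genes moved more. STAT3-/- from WT gave 40 genes in CD4+ T cells, and 271 with DESeq2, 165 with no filter, 303 with the replicate block, 1 with 4 libraries, 164 with 12 and 1 to 49 without a library. In CD8+ T cells it gave 7, and 218 with DESeq2, 66 with no filter, 1 with at least 10 counts in every library, 0 with 4 libraries, 20 with 12 and 0 to 2 without a library. STAT3-/-PD-1-/- T cells gave 1538 (from WT) and 1324 (from STAT3-/-) in CD4+ T cells, and 3104 and 3105 with the replicate block, 2462 and 2299 with 12 libraries, 901 and 717 at a log2 fold change of at least 1, and 62 to 1947 and 0 to 1212 without a library, while DESeq2 gave 2100 from STAT3-/-. In CD8+ T cells they gave 2066 and 2017, and 791 and 795 at that fold change, and 111 to 1908 and 2 to 1878 without a library. The subsets differed in 3145 genes, or 5590 with genotype and number as a block. The interactions gave 0, 1 and 0 genes, and 5, 75 and 21 with DESeq2, while the second gave 28 with the replicate block, 84 with genotype and number as a block, 50 with no filter and 1 to 9 without a library, and the third 22 with that block and 9 with no filter. Of the members, Nqo1 had the fewest counts, at 46 to 102 a library.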
